A study of Mus musculus with 69 samples.

Results

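This account follows the complement components and receptors in the lungs of mice exposed to titanium dioxide nanoparticles. The 9 genes were the 3 chains of C1q (C1qa, C1qb, C1qc), the components C2, C4b and C3, complement factor B (Cfb) and the receptors C3ar1 and C5ar1. They were chosen by name, by matching the transcript accession of each probe to the gene symbol, and they make up 9 of the 18749 genes with a matched probe. All 9 passed the filter on dim probes and were among the 17628 genes tested. C2, C3 and C3ar1 had 2 probes each and the other genes had 1.

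The study exposed female C57BL/6 mice, which arrived aged 5 to 7 weeks and had 1 to 3 weeks to acclimatise, by a single instillation in the trachea. The particle NRCWE-001 was not modified, and NRCWE-002 is a form whose surface was modified to carry a positive charge. Each particle was given at 18, 54 or 162 µg in water with 2% serum, vehicle mice received the liquid without particles, and lungs were taken after 1 or 28 days. Each of the 69 arrays carried RNA from a piece of the lung of 1 mouse, in 14 groups of 5, except that the vehicle group of day 28 had 4, and a commercial mouse reference RNA was hybridised to the same array as the common comparator.

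Complement is a cascade of plasma proteins that marks particles, microbes and dying cells for removal. C1q recognises bound antibody and altered surfaces and starts the classical pathway, in which C4 and C2 form the enzyme that cleaves C3. Factor B forms the C3-cleaving enzyme of the alternative pathway, which amplifies the cascade. The fragments C3a and C5a signal through C3ar1 and C5ar1 on myeloid and other cells. The liver makes most plasma complement, whereas macrophages make C1q in tissues, and epithelial cells and macrophages of the lung can make C3 and factor B.

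C3 was the member with called changes, so its promoter is shown, and the promoters of C1qb and C1qc are shown because the C1q genes varied together. The 250 bases before the transcript start come from the RefSeq promoter table of build GRCm38.p6, which gives 1 such start for each of these genes and matched 5 of the 9 members (C1qb, C1qc, C3, C3ar1 and C5ar1). All 3 genes lie on the minus strand, and the sequences read 5′ to 3′ on that strand. The C3 window lies at chr17:57228137-57228386, that of C1qb at chr4:136886201-136886450 and that of C1qc at chr4:136892915-136893164. The C3 and C1qb windows end where the annotated gene begins, whereas the last bases of the C1qc window lie inside the annotated gene, since the start in the promoter table is not the outermost one. Capitals mark matches, on either strand, to the C/EBP motif TTGNGNAA in C3 and to the PU.1 core GAGGAA in C1qb and C1qc.

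C3: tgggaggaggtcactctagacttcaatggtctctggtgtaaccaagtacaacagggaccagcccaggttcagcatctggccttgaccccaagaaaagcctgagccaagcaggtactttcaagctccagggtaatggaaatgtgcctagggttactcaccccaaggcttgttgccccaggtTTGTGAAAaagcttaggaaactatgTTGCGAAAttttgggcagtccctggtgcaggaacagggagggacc

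C1qb: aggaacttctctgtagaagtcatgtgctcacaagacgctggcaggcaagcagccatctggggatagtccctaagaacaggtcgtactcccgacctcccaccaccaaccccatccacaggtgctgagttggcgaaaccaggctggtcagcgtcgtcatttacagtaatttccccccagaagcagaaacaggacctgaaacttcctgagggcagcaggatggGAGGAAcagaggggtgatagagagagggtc

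C1qc: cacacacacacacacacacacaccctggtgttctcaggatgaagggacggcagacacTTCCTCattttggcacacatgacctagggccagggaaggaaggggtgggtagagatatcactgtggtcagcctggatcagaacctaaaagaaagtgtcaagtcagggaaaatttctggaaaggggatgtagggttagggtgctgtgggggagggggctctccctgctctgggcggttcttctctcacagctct

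The C3 window held 2 matches to the C/EBP motif, TTGTGAAA and TTGCGAAA, which began 70 and 45 bases before the start. Of the other 4 members in the table, C5ar1 also held a match, TTGGGGAA, which began 157 bases before its start. C/EBP factors are known to drive genes of the acute phase. Of all 32851 promoter windows of this length, 11.7% held at least 1 match and 0.935% held at least 2. The PU.1 core, read by a factor of myeloid cells, had 1 match in C1qb, 30 bases before the start, and 1 in C1qc, on the opposite strand 193 bases before the start used for that gene, and 23.3% of all windows held it. No C3, C1qb or C1qc window held the STAT motif TTCNNNGAA (7.02% of all windows), the interferon-stimulated response element (2.98%), the AP-1 motif TGANTCA (6.75%), the TATA box TATAAA (12.4%) or the CCAAT box CCAAT (33.8%). The NF-kB consensus had 1 match in C1qc, beginning 41 bases before that start, and was in 7.25% of all windows. These 8 motifs were chosen with the results known, and a match describes letters, not binding.

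All levels below are log2 ratios of lung RNA to the reference RNA. A level therefore depends on how much of the transcript the reference holds, levels of different genes are not compared, and a difference of 1 between groups is a 2-fold change. The RNA came from whole tissue, in which fewer cells of a type and less RNA per cell cannot be told apart. Between 60.8% and 87.3% of the probes of an array were well above background in the sample channel. Markers of alveolar type 2, alveolar type 1, endothelial and club cells averaged 4.40, 4.07, 5.08 and 6.64 in the vehicle lungs of day 1. These markers were far above the reference. In the same lungs T cell and B cell markers averaged 0.67 and 0.63, and fibroblast markers averaged -0.76, below the reference. The median correlation of an array with the others was between 0.921 and 0.973 for 65 arrays and below 0.9 for 4, of which 3 shared 1 slide (replicate 2 of all 3 NRCWE-002 groups of day 28) and the other was replicate 2 of 18 µg NRCWE-001 on day 1. Changes of single members stated in the text are given without these arrays where the value moved by more than 1.5 times. Medians over the members or over marker lists are given with them. Separate animals are the replicates throughout.

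C3, on whose cleavage all pathways of complement converge, was higher 1 day after 162 µg of either particle. In the 5 vehicle lungs of day 1 it was at 1.00, 1.27, 1.51, 1.54 and 1.73. After 162 µg of NRCWE-001 it was at 1.36, 2.48, 2.77, 2.79 and 2.84. Of these 5 lungs, 4 lay above every vehicle lung, and the lowest lay within the vehicle range. The change was 1.04 on the log2 scale (SE 0.25, 95% interval 0.54 to 1.54), a 2.05-fold increase (limma, adjusted p = 0.0267). After 162 µg of NRCWE-002 C3 was at 1.83, 2.06, 2.37, 2.72 and 2.94, so that all 5 lungs lay above every vehicle lung. This change was 0.97 (SE 0.25, interval 0.48 to 1.47), or 1.96-fold (limma, adjusted p = 0.0446). C3 was the 1 member called in each of these comparisons, in which 0.579% of all genes were called with NRCWE-001 and 0.596% with NRCWE-002. An unadjusted limma p under 0.05 was found for 2 members (C3 and Cfb) with NRCWE-001 and for 3 (C3, Cfb and C1qb) with NRCWE-002. The share of all genes under this unadjusted cut was not counted, here or below, and the percentages called refer to the adjusted p.

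At 54 µg the particles gave different values for C3. After 54 µg of NRCWE-002 the 5 lungs were at 2.03, 2.08, 2.34, 2.39 and 2.83, above every vehicle lung. The change was 0.92 (SE 0.25), or 1.90-fold, and did not pass after adjustment (limma, adjusted p = 0.185), in a comparison where 0.0624% of genes were called. After 54 µg of NRCWE-001 the lungs were at 1.20, 1.35, 2.06, 2.20 and 2.21, and 2 of them lay within the vehicle range (change 0.40, SE 0.25, limma adjusted p = 0.999). At 18 µg C3 ran from 1.11 to 2.04 (NRCWE-001) and from 1.32 to 1.64 (NRCWE-002), and 1 of these 10 lungs lay above the vehicle lungs. C3 at 54 µg was 0.53 higher after NRCWE-002 than after NRCWE-001 (interval 0.03 to 1.03, limma adjusted p = 0.787), which did not pass. At 162 µg the difference was -0.06 (interval -0.56 to 0.43).

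Across the 3 doses, the dose effect of NRCWE-002 on day 1 was called for C3 (limma F = 9.14, adjusted p = 0.0153), where 0.823% of genes were called. The dose effect of NRCWE-001 on day 1 was not (F = 6.95, adjusted p = 0.0591; 0.698% of genes called). On the authors' own table of log2 ratios both were called, with adjusted p-values of 0.0129 for NRCWE-002 and 0.0386 for NRCWE-001, and the changes of C3 at 162 µg were 1.08 and 0.99 (adjusted p = 0.0218 and 0.0424 for NRCWE-001 and NRCWE-002). At 162 µg on day 1 the 2 probes of C3 gave changes of 1.35 and 0.73 after NRCWE-001 and of 1.27 and 0.68 after NRCWE-002. The first probe was called for both particles (limma, adjusted p = 0.0189 and 0.032) and the second for neither (adjusted p = 0.113 and 0.138). At 54 µg of NRCWE-001 the probes disagreed, with changes of 0.82 and -0.03.

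The calls at 162 µg lay close to the threshold. When single arrays were left out in turn, C3 at 162 µg of NRCWE-001 was called in 2 of 10 fits and that of NRCWE-002 in 1 of 10, with changes between 0.94 and 1.31 and between 0.84 and 1.11. Without replicate 5 of NRCWE-001, the low lung, the adjusted p was 0.000575, and without replicate 4 it was 0.212. For NRCWE-002 it ran from 0.0131 without replicate 5 to 0.213 without replicate 3. The dose effect of NRCWE-002 was called in 19 of 20 such fits and lost without replicate 2 of the 162 µg group (adjusted p = 0.0549). On the scanner software's own processed signals the changes were 1.15 and 1.17 but were not called (adjusted p = 0.13 and 0.0987). With all spots in the background fit, in place of leaving out those with outlying local background, the changes were 0.57 and 0.97 and were not called (adjusted p = 0.364 and 0.246), while Cfb at 162 µg of NRCWE-001 changed by -0.011 and C1qa by -0.54. The setting used here was chosen after the data were examined. Some exposed arrays shared a slide with a vehicle array. Within the 3 slides shared with NRCWE-001, C3 at 162 µg was 0.75 to 1.28 above the vehicle lung of the same slide, and within the 2 slides shared with NRCWE-002 it was 1.1 and 1.94 above. With the slide as a fixed block the changes were 1.06 and 1.30 (limma, adjusted p = 0.00433 and 0.00591), and C3 was then also called at 54 µg of NRCWE-002 (1.28, adjusted p = 0.00228). More genes passed in general under this block, 4.38% and 1.96% at 162 µg and 1.37% at 54 µg.

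Cfb, the gene of factor B, followed C3 but its changes did not pass. In the vehicle lungs of day 1 it was at 2.91, 3.04, 3.09, 3.27 and 3.28. After 162 µg of NRCWE-001 it was at 3.05, 3.77, 3.94, 4.04 and 4.27, again with replicate 5 lowest and the other 4 above every vehicle lung (change 0.70, SE 0.26, adjusted p = 0.359). After 162 µg of NRCWE-002 it was at 3.42, 3.66, 3.99, 4.07 and 4.26, and after 54 µg at 3.32, 3.48, 3.62, 4.21 and 4.39. All 10 of these lungs lay above every vehicle lung. The changes were 0.76 (SE 0.26, adjusted p = 0.205) and 0.68 (SE 0.26, adjusted p = 0.649). Within shared slides Cfb at 162 µg was 0.69 to 0.90 above vehicle for NRCWE-001 and 0.71 and 1.36 above for NRCWE-002. With the slide as a fixed block Cfb was called for NRCWE-001 (0.80, adjusted p = 0.0342). With the slide as a random block it was called for both particles (0.79 and 0.78, adjusted p = 0.0240 and 0.0471), where 3.31% and 2.9% of all genes were called.

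**Figure D1:**
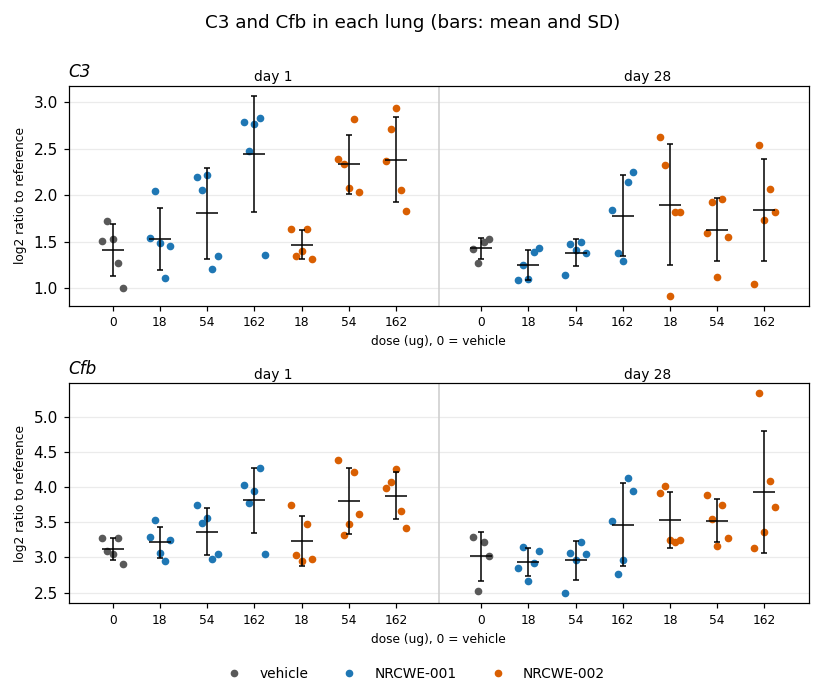
Log2 ratio to reference (vertical axis) of C3 and Cfb in each of the 69 lungs by dose in µg (horizontal axis), day and particle. Each point is 1 lung, bars give the mean and SD of a group, and on day 1 all lungs at 54 and 162 µg of NRCWE-002 lie above the vehicle lungs for both genes, while 1 lung at 162 µg of NRCWE-001 lies among them.

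Of the 9 members, 3 (C1qb, C3 and Cfb) had all lungs at 162 µg of NRCWE-002 on day 1 on one side of all vehicle lungs, as had 4.9% of all genes. At 54 µg of NRCWE-002 these were C3 and Cfb, against 2.94% of all genes. After 162 µg of NRCWE-001 on day 1, and after 162 µg of either particle on day 28, none of the 9 members was without overlap, against 3.4%, 2.25% and 1.07% of all genes.

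None of the 3 chains of C1q was called on day 1, and differences between the chains were not tested. C1qb in the vehicle lungs was at 1.63, 1.70, 1.93, 2.08 and 2.27, and after 162 µg of NRCWE-002 it was at 2.65, 2.71, 2.80, 2.82 and 3.10, without overlap. Its change was 0.90 (SE 0.31, interval 0.27 to 1.53), or 1.86-fold, and did not pass in the fit of all arrays (limma, adjusted p = 0.232). In a fit of the arrays of day 1 alone it was called (adjusted p = 0.0189), where 2.72% of all genes were called. With the slide as a fixed block the change was 0.52 (adjusted p = 0.452), and within the 2 shared slides C1qb was 0.55 and 0.78 above vehicle. C1qa at this dose ranged from 2.95 to 3.48 against 2.71 to 3.06 in vehicle (change 0.39, SE 0.26, adjusted p = 0.755). C1qc ranged from 3.34 to 3.90 against 3.15 to 3.43 (change 0.23, SE 0.24, adjusted p = 0.911). The unmodified particle at this dose gave changes of 0.08, 0.24 and -0.08 for C1qa, C1qb and C1qc, with the groups overlapping. The difference of C1qb between the particles at 162 µg was 0.66 (interval 0.03 to 1.29, unadjusted p = 0.0408 by limma) and did not pass after adjustment.

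On day 28 the C1q genes were high in some lungs at 162 µg and not in others. C1qa in the 4 vehicle lungs was at 2.60, 2.88, 3.05 and 3.19. After 162 µg of NRCWE-001 it was at 2.59, 2.88, 3.53, 4.13 and 4.43, and after 162 µg of NRCWE-002 at 2.85, 3.18, 3.94, 4.01 and 4.48. In both groups 3 of 5 lungs lay above every vehicle lung and the other 2 within or below the vehicle range. C1qb showed the same split, at 1.31, 2.08, 3.13, 3.85 and 3.99 for NRCWE-001 and at 1.93, 2.13, 3.01, 3.25 and 3.95 for NRCWE-002, against 2.10 to 2.26 in vehicle lungs. C1qc was at 2.97, 3.49, 3.69, 4.01 and 4.48 and at 3.17, 3.38, 4.05, 4.08 and 4.32, against 2.61 to 3.60.

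The mean changes of C1qa, C1qb and C1qc on day 28 were 0.58, 0.70 and 0.54 at 162 µg of NRCWE-001 (SE 0.28, 0.33 and 0.25) and 0.76, 0.69 and 0.61 at 162 µg of NRCWE-002 with the same errors. Their unadjusted limma p-values lay between 0.00808 and 0.0444 and none passed after adjustment, the lowest adjusted p being 0.534. No member was called at 162 µg on day 28, where 0.0454% of genes were called with the unmodified particle and 0.00567% with the modified one. In each comparison 4 members had an unadjusted limma p under 0.05, a cut at which all genes were not counted. The SD within the group was 0.79 and 0.66 for C1qa in the exposed groups and 0.25 in the vehicle group. Without the array of NRCWE-002 that stood apart, the C1qb change at 162 µg fell from 0.69 to 0.41. All 4 endothelial markers had changes below 0 at 162 µg of NRCWE-001 (median -0.48, 2 with an unadjusted limma p under 0.05), as had all 4 alveolar type 1 markers (median -0.22, 2 with such a p), and 0 were called. All 4 fibroblast, all 4 adipocyte and the 2 tested club markers were also below 0 there (medians -0.22, -0.20 and -0.35). At 162 µg of NRCWE-002 all 4 endothelial and all 4 alveolar type 1 markers were below 0 too (medians -0.19 and -0.10, 0 with such a p). After NRCWE-001 the endothelial mean per lung ran from 4.47 to 5.15, against 4.98 to 5.45 in vehicle lungs. The part of these lists in the C1q values was not tested.

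The lungs with high C1q were the same lungs for most of the complement genes. At 162 µg of NRCWE-001 on day 28, replicates 1, 4 and 5 each lay above every vehicle lung for 7 of the 9 members, and replicates 2 and 3 for 0. The 7 were C1qa, C1qb, C1qc, C3, C4b, Cfb and C3ar1. At 162 µg of NRCWE-002, replicates 2, 4 and 5 lay above every vehicle lung for 9, 7 and 6 members, and replicates 1 and 3 for 0 and 4. The share of all genes above every vehicle lung was not counted for single lungs, so these counts stand without that comparison. Both lungs of this NRCWE-002 group that shared a slide with a vehicle lung were replicates 1 and 3, where C1qa differed from vehicle by -0.01 and -0.03. The 3 high lungs were on slides without a vehicle array, and replicate 2 was on the slide whose 3 arrays stood apart. For NRCWE-001, replicate 1 was the one that shared a slide with a vehicle lung, and C1qa was 0.93 above it. With the slide as a fixed block the changes of C1qa were 0.50 and 0.64 for NRCWE-001 and NRCWE-002, and no member was called on day 28.

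**Figure D2:**
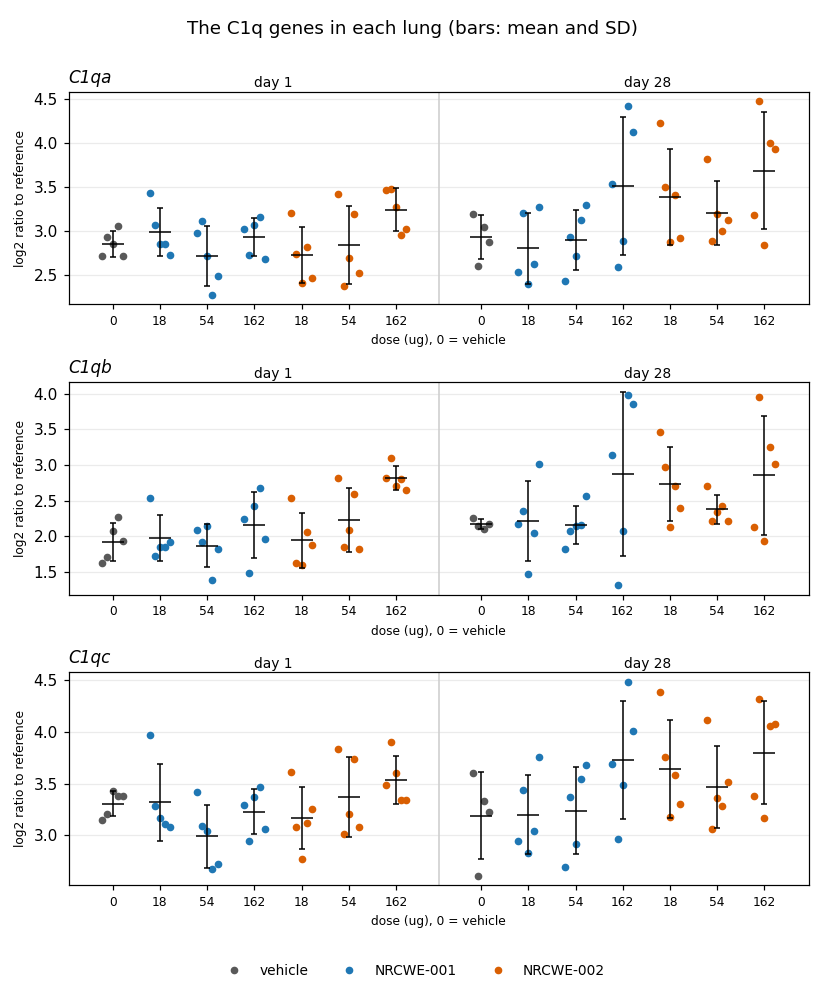
Log2 ratio to reference (vertical axis) of C1qa, C1qb and C1qc in each of the 69 lungs by dose in µg (horizontal axis), day and particle, with the mean and SD of each group as bars. At 162 µg on day 28, 3 of 5 lungs of each particle lie above every vehicle lung for all 3 genes and the other 2 do not.

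Cfb had the largest change among the 9 members at 162 µg of NRCWE-002 on day 28. The vehicle lungs were at 2.52, 3.03, 3.22 and 3.30, and the lungs at 162 µg of NRCWE-002 at 3.14, 3.37, 3.72, 4.09 and 5.34. Of these, 4 of 5 lay above the vehicle lungs. The change was 0.91 (SE 0.28), with an unadjusted limma p of 0.00155 and an adjusted p of 0.426, and without replicate 2, the array at 5.34, it was 0.56. At 18 and 54 µg of NRCWE-002 the changes of Cfb were both 0.51 (SE 0.28). For NRCWE-001 on day 28 they were -0.08, -0.06 and 0.45 at 18, 54 and 162 µg.

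C3 on day 28 was at 1.27, 1.42, 1.49 and 1.53 in vehicle lungs. At 162 µg it ran from 1.30 to 2.25 for NRCWE-001 and from 1.05 to 2.54 for NRCWE-002 (changes 0.35 and 0.41, SE 0.26, adjusted p = 0.788 and 0.802). Without the array of NRCWE-002 that stood apart, the second change was 0.24. The change of C3 on day 28 minus that on day 1 was -0.69 (interval -1.41 to 0.04) for NRCWE-001 and -0.56 (interval -1.29 to 0.16) for NRCWE-002. Neither difference passed (limma, unadjusted p = 0.0639 and 0.127), and 0% of genes were called in either comparison of days, so a smaller C3 change on day 28 was not resolved with these lungs.

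C2 and C4b, which encode the parts of the classical C3-cleaving enzyme, did not pass in any comparison. C2 in the vehicle lungs of day 1 was at 2.53, 2.97, 3.07, 3.26 and 3.43. At 162 µg on day 1 its changes were -0.18 and -0.25 (SE 0.21) for NRCWE-001 and NRCWE-002, and the intervals ran from -0.59 to 0.24 and from -0.66 to 0.16. C4b in the same vehicle lungs was at 3.25, 3.54, 3.83, 3.92 and 3.97, with changes of -0.08 and -0.17 (SE 0.32) at 162 µg. The C4b intervals ran from -0.71 to 0.56 and from -0.80 to 0.47. C4b and its near-identical neighbour C4a may share probe signal, so that its values are uncertain to that extent. The widest spread of C4b was at 162 µg of NRCWE-002 on day 28, from 3.40 to 5.65, and the highest lung was again replicate 2, on the slide that stood apart. The change there was 0.40 (SE 0.34), and C4b at 162 µg of NRCWE-002 on day 28 changed by 0.018 without the arrays that stood apart.

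The receptors showed small ratios. C3ar1, the receptor of C3a, was near the reference level, at -0.24 to -0.12 in the vehicle lungs of day 1 and -0.25 to 0.15 at 162 µg of NRCWE-001 (change 0.10, interval -0.08 to 0.29), and at 162 µg of NRCWE-002 it changed by 0.13 (interval -0.06 to 0.31). In the lungs exposed to 162 µg of NRCWE-001 for 28 days C3ar1 was at -0.29, -0.16, 0.01, 0.31 and 0.42 against vehicle lungs whose highest was -0.00, and the 3 highest lungs were those with high C1q. The change was 0.21 (SE 0.10, limma adjusted p = 0.514). One of its 2 probes was well above background on 68 arrays and the other on 14. The first of these changed by 0.23 and 0.25 at 162 µg of NRCWE-001 and NRCWE-002 on day 1 (limma, unadjusted p = 0.0691 and 0.0419, adjusted p = 0.775 and 0.521), and the dim one by -0.019 and -0.0040. C5ar1, the receptor of C5a, was well above background on 12 of 69 arrays. Its log2 ratios stayed between -0.27 and 0.16 over all arrays, and ratios this close to background are compressed toward 0.

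**Figure D3:**
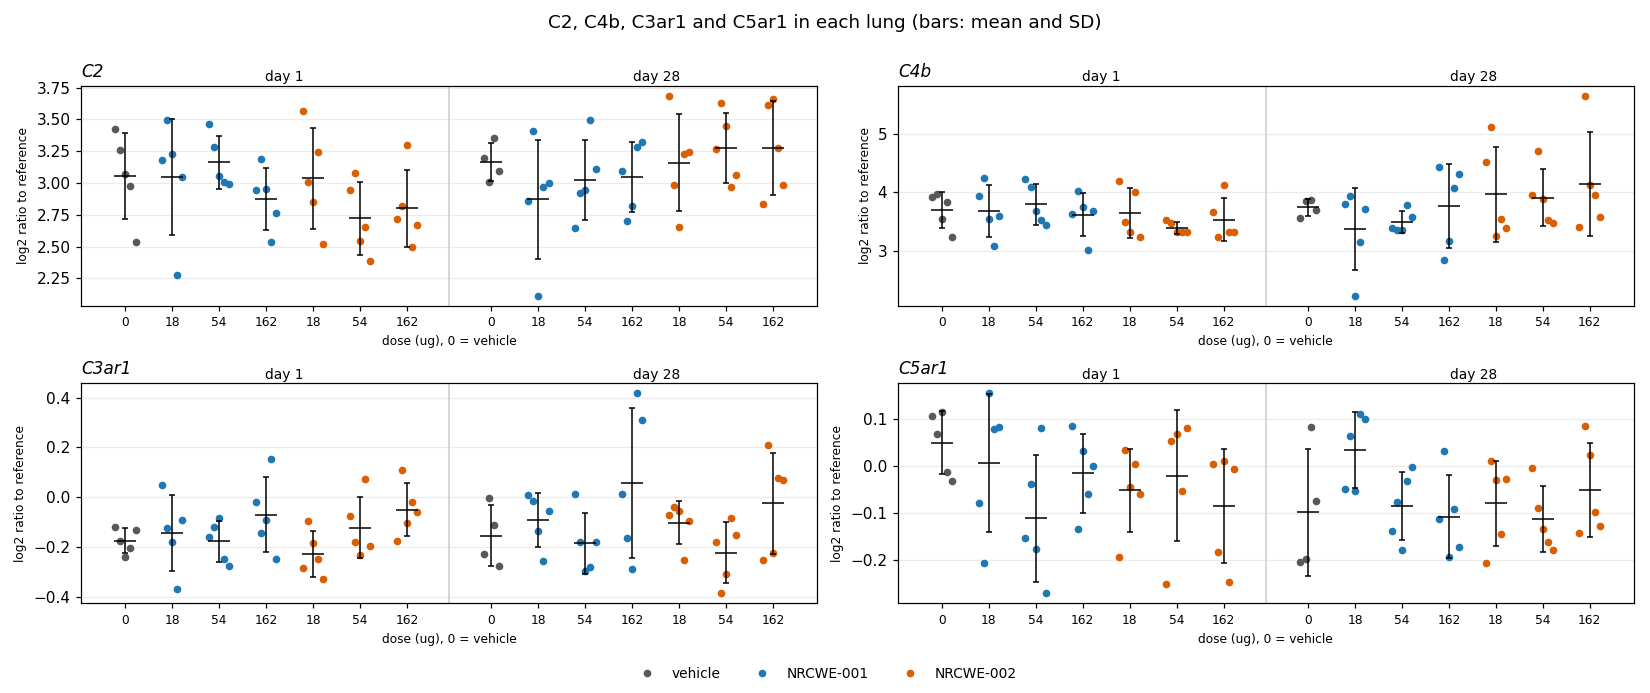
Log2 ratio to reference (vertical axis, scaled for each gene) of C2, C4b, C3ar1 and C5ar1 in each of the 69 lungs by dose in µg (horizontal axis), day and particle, with the mean and SD of each group as bars. The groups overlap for all 4 genes, and the values of C3ar1 and C5ar1 span 0.80 and 0.43 log2 units over all arrays.

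Over the 9 members, 5 changes were above 0 at 162 µg of NRCWE-001 on day 1, with a median of 0.08, and 6 at 162 µg of NRCWE-002, with a median of 0.23. Over all genes tested, 53.1% and 54.9% of the changes were above 0, and the medians were 0.01 and 0.01. On day 28 the members above 0 were 7 for NRCWE-001 (median 0.35) and 9 for NRCWE-002 (median 0.41). Over all genes 46.5% and 46.8% of the changes were above 0, with medians of -0.01 and -0.01. The NRCWE-002 values of day 28 include the array that stood apart. Without it the changes of C1qb, C3, C4b and Cfb were smaller, as given above. The median was smaller too, and 0.41 is its value with that array included. The 4 comparisons share their vehicle lungs 2 by 2, and the members vary together between lungs, so these counts are not independent.

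**Figure D4:**
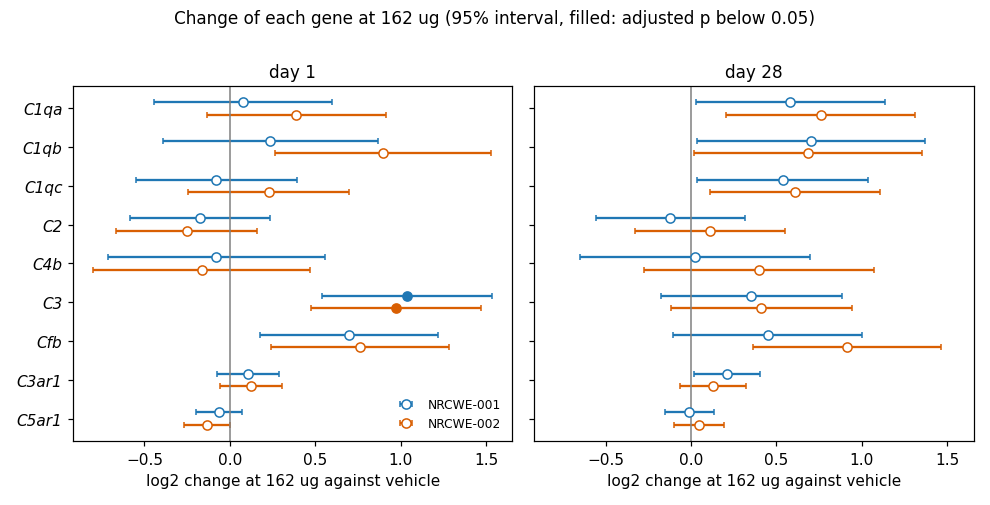
Log2 change at 162 µg against the vehicle of the same day (horizontal axis) for each of the 9 genes, with its 95% interval, by particle and day. Filled points passed an adjusted p of 0.05, which C3 did for both particles on day 1 (1.04 and 0.97), while all other points are open.

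At the lower doses no member was called. No gene at all was called (0%) at 18 and 54 µg of NRCWE-001 and 18 µg of NRCWE-002 on day 1, at 54 µg of NRCWE-001 and at 18 and 54 µg of NRCWE-002 on day 28. At 18 µg of NRCWE-001 on day 28, 0.193% of genes were called. The dose effect on day 28 was called for 0.477% of genes with the unmodified particle and 0% with the modified one, with no member among them. By limma, between 0 and 2 members had an unadjusted p under 0.05 at a dose of 18 or 54 µg, and the ordinary test without moderation called no member there either. Median changes over the members at 18 and 54 µg lay between -0.08 and 0.45, the highest at 18 µg of NRCWE-002 on day 28.

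Between the particles no member differed after adjustment at any dose or day. The share of all genes called was 0%, 0.13% and 0% at 18, 54 and 162 µg on day 1 and 0.119%, 0.0284% and 0% on day 28. The largest differences with an unadjusted p under 0.05 were those of C1qb at 162 µg on day 1, given above, and of C3 at 18 µg on day 28, which was 0.65 higher after NRCWE-002 (interval 0.15 to 1.15, limma unadjusted p = 0.0118, adjusted p = 0.401). At that dose and day Cfb was 0.59 higher after NRCWE-002 (interval 0.07 to 1.11), C1qa was 0.58 higher (interval 0.06 to 1.11), and neither passed after adjustment. Without the array of this NRCWE-002 group that stood apart, the 3 differences were 0.54, 0.47 and 0.56. In the same group all 4 adipocyte markers were above 0 relative to vehicle (median change 1.06, 3 with an unadjusted limma p under 0.05), with a mean per lung of 1.24 to 4.55 against 0.97 to 2.10 at 18 µg of NRCWE-001. All 4 heart muscle markers were also above 0 (median change 1.62), at 1.67 to 4.44 per lung against 0.70 to 4.14. None of these markers was called, and their part in the differences was not tested. At 54 µg on day 28 Cfb was 0.56 higher after NRCWE-002 (interval 0.04 to 1.08) and at 54 µg on day 1 C2 differed by -0.44 (interval -0.85 to -0.03), again without passing. The intervals at 162 µg on day 28, such as -0.34 to 0.70 for C1qa and -0.05 to 0.99 for Cfb, allow for differences between the particles of up to 1 log2 unit in Cfb. These intervals include the array of NRCWE-002 that stood apart. Without it the differences were -0.019 for C1qa and 0.12 for Cfb. The vehicle lungs of day 28 differed from those of day 1 by -0.15 to 0.25 over the 9 members, with no member and 0% of genes called and 1 member (C5ar1) at an unadjusted limma p under 0.05.

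Across all 69 arrays the members formed sets with similar patterns. The Pearson correlation was 0.94 between C1qa and C1qc, 0.90 between C1qa and C1qb, and 0.86 between C1qb and C1qc, whose 3 genes lie next to each other on chromosome 4. C3 and Cfb correlated at 0.84, and both lie on chromosome 17, where 373 protein-coding genes separate C3 from C4b and 5 separate Cfb from C4b. C2 and C4b correlated at 0.75, and C2 and Cfb, which are neighbours, at 0.27. Cfb also correlated with C1qa at 0.70. After group and slide effects were taken out together, Cfb correlated with C1qa and C1qb at 0.81 and 0.80 and with C3 at 0.77. C3 was thus the member most like Cfb over all arrays, but not after both effects were taken out. The C1q genes then stayed at 0.92 to 0.97, and C2 with C4b at 0.81. Over all arrays C5ar1 did not exceed -0.01 with any other member. After group and slide effects were taken out, its highest value was 0.18, with C4b. Both are values of a gene mostly near background. These correlations are descriptions over 69 arrays that share slides and the reference RNA.

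**Figure D5:**
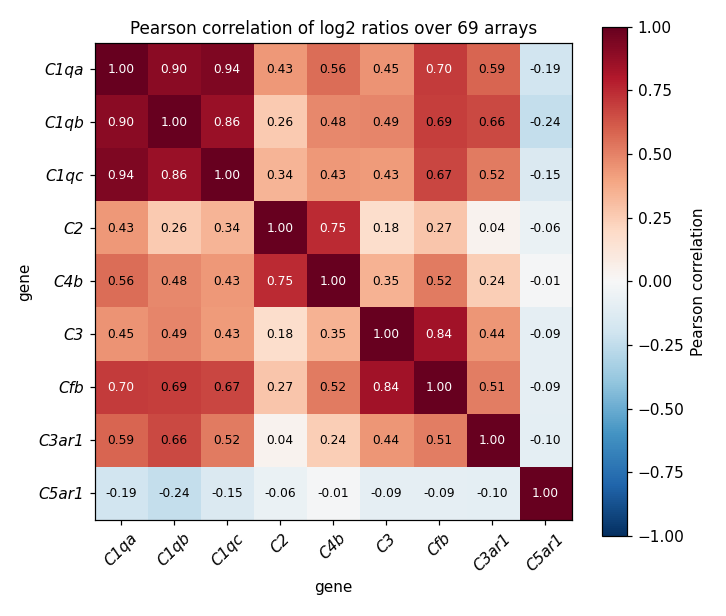
Pearson correlation of the log2 ratios of each pair of the 9 genes over 69 arrays, with the value in each cell and a colour scale from -1 to 1. The C1q genes form 1 block (0.86 to 0.94), C3 and Cfb are at 0.84, and C2 and C4b at 0.75, with group means included.

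Among all genes tested, those most like C3 over the 69 arrays were Lcn2 (Pearson correlation 0.87), Saa3 (0.87) and Timp1 (0.86), which encode lipocalin 2, serum amyloid A3 and a tissue inhibitor of metalloproteinases. Those most like Cfb were Il4i1 (0.85), C3 itself (0.84) and Snx20 (0.83). Beside the other C1q chains, C1qa and C1qc were most like Cd83, a surface protein of activated antigen-presenting cells (0.86 and 0.82), and C1qb was most like Slfn2 (0.84). C3ar1 was most like the scavenger receptor gene Msr1 (0.79), Wfdc17 (0.75) and the chemokine gene Ccl9 (0.74). For C4b these were Cyth4 (0.76), Unc119 (0.75) and C2 (0.75), and for C2, beside C4b, Cldn15 (0.68) and Aldh1a2 (0.67). No gene exceeded 0.46 with C5ar1.

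The other genes of the pathway were read from 5 lists with 44 genes, of which 41 were tested. One of them was called in any of the 12 comparisons of a dose with vehicle. This was Colec11, a collectin of the lectin pathway, which fell by 0.50 at 162 µg of NRCWE-001 on day 1 (SE 0.12, limma adjusted p = 0.0214). In that comparison 0.579% of all genes were called. It was at 0.47 to 0.84 in the vehicle lungs and at 0.13 to 0.33 in the exposed lungs, without overlap, as were 3.4% of all genes. Its change at 162 µg of NRCWE-002 was -0.27 (limma adjusted p = 0.416). Its dose effect on day 1 was not called for NRCWE-001 (limma F = 6.81, adjusted p = 0.0629) or NRCWE-002 (F = 3.64, adjusted p = 0.399). Of the 13 genes that start the classical and lectin pathways, 8 were above 0 at 162 µg of NRCWE-001 on day 1 (median change 0.04) and 7 at 162 µg of NRCWE-002 (0.02). C1ra, a protease of the C1 complex, changed by 0.45 and 0.39 and the ficolin Fcna by 0.16 and 0.69, and neither passed.

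None of the alternative, terminal, regulator or receptor genes was called. Cfd and Cfp, which encode factor D and properdin of the alternative pathway, had changes of -0.35 and 0.24 (NRCWE-001) and of 0.61 and 0.59 (NRCWE-002) at 162 µg on day 1. Factor D is abundant in fat, and Cfd ran from 0.78 to 4.76 in the 5 vehicle lungs, so that its SE of 1.22 exceeded these changes. Among 5 tested terminal genes, Hc, which encodes C5, changed by -0.61 and -0.23 and C6 by 0.32 and 0.27. Among 12 tested regulators, the chaperone-like Clu changed by 0.46 and 0.62 and Susd4 by -0.30 and -0.35. Among 9 receptors, Calr, the gene of a C1q-binding chaperone, changed by 0.55 and 0.63, and Itgam, a chain of complement receptor 3, by 0.44 and 0.34. None of these values passed after adjustment, the lowest adjusted p being 0.145.

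Of the blood leukocyte lists, the neutrophil one held called genes on day 1. All 6 tested genes of the neutrophil list were above 0 at 162 µg of both particles on day 1. Of them 2 were called for NRCWE-001 and 0 for NRCWE-002, where 0.579% and 0.596% of all genes were called. None of the monocyte, T cell or B cell markers was called there. All 4 monocyte markers were above 0 at 162 µg of both particles (medians 0.34 and 0.28). In each comparison 1 of them had an unadjusted limma p under 0.05. At 162 µg of NRCWE-001 all 3 T cell and all 3 B cell markers were below 0. With NRCWE-002, 2 of 3 T cell and 2 of 3 B cell markers were above 0. Outside these lists, 1 of 4 alveolar type 1 markers was called higher at 162 µg of each particle on day 1 (changes 0.68 and 0.58). No other of the 4 was above 0. The neutrophil mean per lung ran from 2.03 to 2.53 in vehicle lungs, from 2.20 to 3.52 after 162 µg of NRCWE-001 and from 2.37 to 3.19 after 162 µg of NRCWE-002. Across arrays C3 correlated with this mean at 0.52, Cfb at 0.45 and C1qa at 0.23. With the mean of the monocyte list C3 correlated at 0.50 and Cfb at 0.69. On day 28 the neutrophil mean was between 1.70 and 2.87 at 162 µg of NRCWE-001 and between 2.24 and 2.37 in vehicle lungs. The part of neutrophil and monocyte numbers in the C3 and Cfb values was not tested.

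The C1q genes correlated more with other leukocyte lists than with the neutrophil list, as did Cfb with the monocyte list. The mean of 4 monocyte markers correlated with C1qa, C1qb and C1qc at 0.84, 0.78 and 0.77 over the 69 arrays, 3 T cell markers at 0.72, 0.64 and 0.69, and 3 B cell markers at 0.58, 0.46 and 0.53. For 9 tested macrophage markers these values were 0.53, 0.48 and 0.51, and their mean ran from 1.97 to 2.42 at 162 µg of NRCWE-001 on day 1 against 2.27 to 2.65 in vehicle lungs, with 1 marker called lower. At 162 µg on day 28 the monocyte mean ran from 1.06 to 2.24 for NRCWE-001 and from 1.29 to 2.10 for NRCWE-002, against 1.21 to 1.53 in vehicle lungs, and 0 of the 4 markers were called. The mean of 4 heart muscle markers was 2.71 to 4.31 at 162 µg of NRCWE-002 on day 28 and 0.93 to 3.45 in vehicle lungs, and it correlated with C1qa and Cfb at 0.27 and 0.26. The part of these cell types, and of the share of other tissue in the piece of lung, in the C1q and Cfb values was not tested.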

How the data were processed

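RNA from 69 mouse lungs was hybridised to 2-colour Agilent arrays, lung RNA in the red channel and the reference RNA in the green one, without dye swap. The authors scanned the arrays with Agilent Feature Extraction 11.0.1.1, and the deposited files hold the spot intensity of each channel. The authors also deposited a table of normalised log2 ratios (lung over reference), which was used as an alternative and correlated with the values used here at 0.987 to 0.995 per array.

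From the median intensity of each spot, background was corrected with normexp (offset 50). The background curve was fitted without spots (0 to 470 per array) of outlying local background, more than 10 median absolute deviations off the array's median, a choice made after the data were examined. Loess (span 0.3, 4 iterations) was applied within arrays. Control and outlier spots were left out, repeat spots were reduced to their median, and 27479 of 41174 probes were matched by accession to symbols in a RefSeq table. A probe was kept if well above background in the lung channel on at least 4 arrays, and a gene is the median over its kept probes. No spot was saturated (0).

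Group means of all 14 groups were fitted in limma 3.58.1 (R 4.3.3), with Benjamini-Hochberg adjustment over 17628 genes within each comparison and a threshold of 0.05. Tests were two-sided and intervals are at 95%. The study's methods name no covariate. Slide (18) and scan day (12) were tried as blocks, with the random slide block at a correlation of 0.47. The members, gene lists and tests were chosen with earlier results of these data known. All 9 members were named, with the pathway genes called at any dose or otherwise the 2 of a list with the largest change at 162 µg on day 1, and the 3 genes most like each member. Array number limits the precision.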

Additional observations from a re-analysis of the deposited data

Results flagged for a closer look

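Over 126 sets of 1 gene in 1 group, 4 had a highest or lowest lung far from the others of its group, and chance gives about 1 in 20. At 18 µg of NRCWE-001 on day 1, replicate 1 was highest for C1qb at 2.54 (the next lung at 1.93) and for C1qc at 3.97 (the next at 3.28). At 162 µg of NRCWE-001 on day 1, replicate 5 was lowest for C3 at 1.36 (the next at 2.48). At 18 µg of NRCWE-002 on day 28, replicate 4 was lowest for C3ar1 at -0.25 (the next at -0.10).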

How the results depend on the processing

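No paired analysis was possible because the labels number no replicates, apart from the comparisons within slides and the fits with the slide or scan day as a block. Leaving out each array in turn gave 0 to 1 members called at 162 µg of either particle on day 1, and 0 to 1 for the dose effects of both particles on day 1. The changes at 162 µg of NRCWE-001 ran from -0.19 to 0.072 for C4b on day 1, from -0.15 to 0.25 for C4b on day 28 and from -0.045 to 0.052 for C5ar1 on day 28. Under the other settings 445 member changes at 162 µg kept their direction and side of the threshold, and 29 changed sign.

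At 162 µg of NRCWE-001 on day 1, 0 members were called with all spots in the background fit or the processed signals, and 2 (C3 and Cfb) with the scan day, the fixed or the random slide block. At 162 µg of NRCWE-002 on day 1, 0 were called with all spots, the processed signals or the ordinary test, 3 (C1qb, C3 and Cfb) with the arrays of day 1 alone and 2 (C3 and Cfb) with the scan day or random slide block. Under these settings the share of all genes called rose too. With NRCWE-001 at 162 µg it was 0.579% in the fit reported and 4.28%, 4.38% and 3.31% with the scan day, fixed and random slide block. With NRCWE-002 it was 0.596%, against 2.72% with the arrays of day 1 alone and 4.46% and 2.9% with the scan day and random slide block. At 54 µg of NRCWE-002 on day 1, 1 (C3) was called with each of these 3 blocks, where 0.777% to 1.37% of all genes were. The dose effect of NRCWE-001 on day 1 was called for 1 member (C3) with the authors' table, the arrays of day 1 alone, the 3 blocks, the stricter filter and without the 4 arrays that stood apart, where 0.879% (authors' table) to 7.42% (fixed slide block) of all genes were called. That of NRCWE-002 was called for 0 with all spots or the processed signals and for 3 with the arrays of day 1 alone (3.01% of all genes). The median change over the members was -0.22 at 162 µg of NRCWE-001 on day 1 with all spots, and 0.23 and 0.31 at 18 µg of NRCWE-002 on day 1 with the scan day and the fixed slide block.

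At 162 µg of NRCWE-001 on day 1 the sign turned with all spots for C1qa (-0.54), C1qb (-0.22) and Cfb (-0.011), with the processed signals for C1qa (-0.25) and C5ar1 (0.20), with median centring for C1qc (0.036) and C4b (0.053), with the scan day block for C1qc (0.030) and C4b (0.028), with the fixed slide block for C1qc (0.020) and C4b (0.031), with the random slide block for C4b (0.018), with the second probe for C3ar1 (-0.019), with the authors' table for C5ar1 (0.023), with no background correction for C5ar1 (0.019). The same dose on day 28 turned sign with the processed signals for C4b (-0.028), with median centring for C2 (0.030), with the fixed slide block for C2 (0.023) and C5ar1 (0.017), with the random slide block for C5ar1 (0.0081), with the authors' table for C5ar1 (0.029), with no background correction for C5ar1 (0.028). For NRCWE-002 on day 1 the sign turned with the scan day block for C2 (0.041) and C4b (0.036), with the fixed slide block for C2 (0.097), C3ar1 (-0.0027) and C4b (0.083), with the second probe for C3ar1 (-0.0040). On day 28 it did so with median centring for C2 (-0.084). The causes were not tested. The all-spots and arrays-apart alternatives were chosen after seeing the data. C5ar1, rarely above background, is limited by signal.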
